A study of Mus musculus with 2 samples.

Results

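The Mir17-Mir92 cluster is a group of 6 miRNA genes carried by 1 transcript on mouse chromosome 14. Its members, Mir17, Mir18, Mir19a, Mir20a, Mir19b-1 and Mir92-1, were found by gene identifier, a rule that uses no measured level, and all 6 were found among the 1973 miRNA genes in the count tables. They were measured in newborn skeletal muscle of the mouse strain B6NCrl. The study sequenced small RNA in the size class under 30 bases from total RNA. The tissue came from a pair of littermates, pup 1 (replicate 1) and pup 2 (replicate 2), taken at postnatal day 0, with the sex not collected. Both libraries form a single untreated group, so no comparison between conditions exists, no p-value is given, and a difference between the libraries is a difference between these 2 libraries only.

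The cluster is known to promote cell division. Its transcription is raised by Myc and E2F factors, and its miRNAs lower messengers of cell cycle inhibitors and of death-promoting proteins, among them Cdkn1a and Bcl2l11. Several of its miRNAs have been linked to the division of cultured myoblasts, and mice without the cluster die around birth with small lungs and heart defects. A miRNA recognises its messengers mainly through the seed, bases 2 to 8 of the mature strand, and the 6 genes fall into 4 seed classes that are known to act on different sets of messengers.

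The mature strands that name each member are shown because the results below sort by seed. They were taken from RefSeq (build GRCm38.p6, the same genome as mm10), are written 5′ to 3′, and have the seed in capitals.
Mir17, miR-17-5p: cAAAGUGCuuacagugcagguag
Mir20a, miR-20a-5p: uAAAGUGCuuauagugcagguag
Mir18, miR-18a-5p: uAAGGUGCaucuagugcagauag
Mir19a, miR-19a-3p: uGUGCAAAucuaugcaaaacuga
Mir19b-1, miR-19b-3p: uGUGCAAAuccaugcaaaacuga
Mir92-1, miR-92a-3p: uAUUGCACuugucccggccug
Mir17 and Mir20a share the miR-17 seed, Mir19a and Mir19b-1 share the miR-19 seed, and Mir18 and Mir92-1 each stand alone within the cluster. Counting positions from 1 at the 5′ end, the mature strands of Mir17 and Mir20a differ by C1U and C12U. Those of Mir19a and Mir19b-1 differ by U11C alone. The deposited counts are per gene and do not separate the arms of a hairpin.

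The 6 hairpins lie in tandem on the plus strand, from the start of Mir17 at 115043671 to the end of Mir92-1 at 115044506 (mm10), a span of 836 bases. In between lie Mir18 at 115043851 to 115043946, Mir19a at 115044000 to 115044081, Mir20a at 115044157 to 115044263, and Mir19b-1 at 115044305 to 115044391. Mir17 ends at 115043754 and Mir92-1 starts at 115044427. The gaps between neighbouring hairpins were 35 to 96 bases. In GENCODE M21 each hairpin lies within an exon of the non-coding gene Mir17hg (115042879 to 115046727), which has 1 annotated transcript, and the first hairpin starts 792 bases after the start of that gene.

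Replicate 1 held 3754895 counts on the genes' own strand and replicate 2 held 5133949, so that 1 count was worth 0.266 and 0.195 CPM, the count scaled to a fixed library total. Reads listed as multimapping, on a line apart from the genes, were 30.2% and 29.9% of each library. Genes with 0 counts in both libraries numbered 1320 of 1973. The muscle genes fixed as markers were present in 5 of 5 cases, led by Mir206, which had the highest count of all listed genes in both libraries. Outside that list, Mir1a-1, Mir133a-1 and Mir133a-2 were low. In replicate 1 and replicate 2 they had 24 and 46, 20 and 32, and 4 and 6 counts, in that order. Markers of the other tissues were also present. Their summed levels in replicate 1 and replicate 2 were 5688 and 230 CPM for the 7 genes of epithelium and skin and 6539 and 966 CPM for the cartilage gene Mir140. They were 416 and 299 CPM for the 2 red blood cell genes, 617 and 432 CPM for the 3 listed white blood cell genes, and 40785 and 36558 CPM for the endothelial gene Mir126a. The 4 listed neural genes summed to 956 and 1213 CPM, all from Mir128-1 and Mir128-2, while Mir124a-1 and Mir9-2 were at 0 in both.

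Together the 6 members held 30165 counts in replicate 1 and 30851 in replicate 2. This gave the cluster 0.803% of the own-strand total of pup 1 (exact Clopper-Pearson 95% interval 0.794 to 0.812) and 0.601% of that of pup 2 (0.594 to 0.608), or 0.702% ± 0.143 (SD, n = 2). The cluster was thus a minor part of the miRNA of newborn muscle, present in both pups. All 6 members had at least 10 counts in each library, and 0 counts fell on the opposite strand of any of them. As in any bulk tissue, fewer cells that make a miRNA and less of it per cell cannot be told apart.

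Mir17, the member with the highest level, had 4366 CPM in replicate 1 and 2995 CPM in replicate 2, a mean of 3681 ± 969 CPM (SD, n = 2). It ranked 43 and 53 among the 1973 genes. The counts of Mir92-1 and Mir19b-1 may leave out reads shared with a copy, as set out below. On the counts given, Mir17 was above each of the other 5 members in both pups, with no overlap. Mir20a, its neighbour in seed, had 1534 and 992 CPM, a mean of 1263 ± 383 CPM (SD, n = 2). Mir18 had 1207 and 1090 CPM, a mean of 1149 ± 82.6 CPM (SD, n = 2). These 2 members could not be ordered, since Mir20a was the higher in replicate 1 and Mir18 in replicate 2.

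Mir92-1, the last hairpin of the transcript and the gene of miR-92a, which is known to restrain blood vessel growth, had 908 and 912 CPM, a mean of 910 ± 2.56 CPM (SD, n = 2). On the counts given, it lay below Mir18 and Mir20a in each library, although its gap to the mean of Mir20a was smaller than the SD of Mir20a. The miR-19 genes were far lower. Mir19a had 51 and 84 counts, which were 13.6 CPM (10.1 to 17.9) and 16.4 CPM (13.1 to 20.3), with a mean of 15.0 ± 1.97 CPM (SD, n = 2). Mir19b-1 had 18 and 17 counts, which were 4.79 CPM (2.84 to 7.58) and 3.31 CPM (1.93 to 5.30), with a mean of 4.05 ± 1.05 CPM (SD, n = 2).

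**Figure D1:**
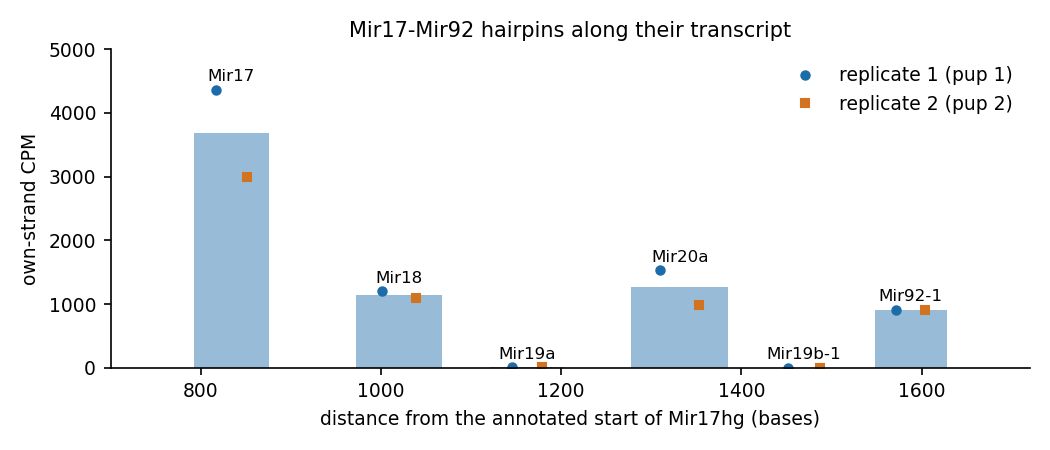
Own-strand CPM of the 6 hairpins (vertical axis, linear from 0) against their distance in bases from the annotated start of Mir17hg (horizontal axis). Bars are as wide as the hairpin and give the mean of both libraries, circles replicate 1 and squares replicate 2; Mir17 stands at 3681 CPM and the miR-19 genes lie on the baseline.

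The level did not follow the order of the hairpins. Mir19a, between Mir18 and Mir20a, and Mir19b-1, between Mir20a and Mir92-1, were both low beside neighbours that were not. Within replicate 1, Mir17 exceeded Mir19a by 321 times (244 to 432, 95% counting interval), and within replicate 2 by 183 times (148 to 230). Mir19a in turn exceeded Mir19b-1 by 2.83 times (1.63 to 5.15) and 4.94 times (2.91 to 8.88). The mature strand of Mir19a had the lowest share of G and C of the 6, at 34.8%, and that of Mir92-1 the highest, at 57.1%. Those of Mir20a and Mir19b-1 were equal at 39.1%. The part of base composition in the levels was not tested.

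Reads of this size class are shorter than any hairpin, so CPM were not divided by length in the values above. The hairpins were 80 to 107 bases long. Divided by hairpin length, the mean levels were 4382 ± 1154 CPM per 100 bases for Mir17, 1196 ± 86.0 for Mir18, 1181 ± 358 for Mir20a and 1137 ± 3.20 for Mir92-1 (SD, n = 2). On that scale any pair among Mir18, Mir20a and Mir92-1 differed by less than the larger SD of the pair, and Mir19a and Mir19b-1 followed at 18.3 ± 2.40 and 4.66 ± 1.20 CPM per 100 bases.

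The make-up of the cluster was similar in both pups and shifted by a few percentage points. In replicate 1 Mir17 made up 54.3% of the cluster (53.8 to 54.9), and in replicate 2 it made up 49.8% (49.3 to 50.4). Mir20a made up 19.1% (18.7 to 19.5) and 16.5% (16.1 to 16.9). Both miR-17 seed members thus took a larger part in replicate 1, beyond counting error. Mir18 made up 15.0% (14.6 to 15.4) and 18.1% (17.7 to 18.6), and Mir92-1 11.3% (10.9 to 11.7) and 15.2% (14.8 to 15.6), so both took a larger part in replicate 2. The miR-19 genes held under 1% in either library, Mir19a 0.169% and 0.272%, Mir19b-1 0.0597% and 0.0551%.

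**Figure D2:**
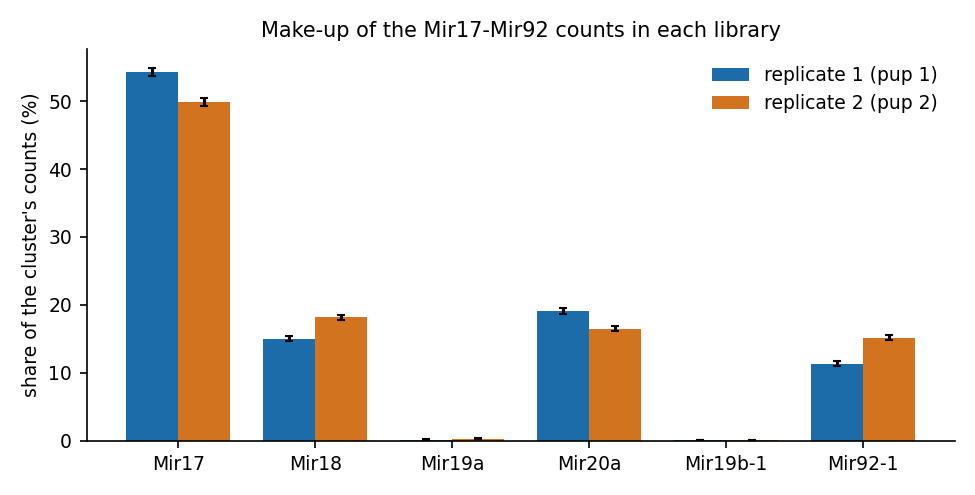
Share of the cluster's own-strand counts held by each member (vertical axis, percent), in replicate 1 (left bar) and replicate 2 (right bar), with exact 95% intervals for counting error. Mir17 and Mir20a have the taller bar in replicate 1, at 54.3% and 19.1%, and Mir18 and Mir92-1 in replicate 2, at 18.1% and 15.2%.

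The libraries were then set against each other gene by gene, as log2 of replicate 1 over replicate 2. Scaling used TMM factors, which set the libraries level over most genes; with library totals alone every log2 ratio would be 0.13 higher. Over the 373 genes with at least 10 counts in total, the median was -0.0059 and the quartiles were -0.31 and 0.32. Of these genes 8.31% were at least 2-fold apart, 6.43% in the direction of replicate 1 and 1.88% in that of replicate 2. Of the 6 members, 0 were. The members had a median of 0.21.

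On a finer scale both miR-17 seed members were higher in pup 1 beyond counting error. Mir92-1 was lower with TMM factors, but not with library totals. Mir17 had 16393 and 15378 counts, a log2 ratio of 0.41 (0.38 to 0.44), or 1.33-fold. Mir20a had 5761 and 5094 counts, a log2 ratio of 0.50 (0.44 to 0.55), or 1.41-fold. Both lay above the upper quartile of all genes. The log2 ratio of Mir18, from 4532 and 5597 counts, was 0.015 (-0.042 to 0.072). That of Mir92-1, from 3410 and 4681 counts, was -0.14 (-0.20 to -0.073), and -0.0057 with library totals. For Mir19a the log2 ratio was -0.39 (-0.93 to 0.12) and for Mir19b-1 it was 0.40 (-0.64 to 1.45), so a difference was not detectable at these counts.

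Thus 2 of 6 members were higher in replicate 1 beyond counting error, beside 24.7% of all genes tested, and 1 of 6 was higher in replicate 2, beside 27.1%. With library totals these became 3 of 6, with Mir18 added, beside 33.8% of all genes, and 0 of 6, beside 18.5%. These intervals cover counting error only and do not describe the spread between pups in general. The cluster's summed level was higher in replicate 1, with a log2 ratio of 0.29 (0.26 to 0.31). Among the marker lists, the log2 ratio of summed counts was 0.38 for the white blood cell genes, 2.63 for Mir140 and 4.50 for the genes of epithelium and skin. It was 0.026 for Mir126a, -0.27 for the muscle genes and -0.48 for the neural genes, the last from Mir128-1 and Mir128-2 alone. The 2 red blood cell genes differed in direction, with log2 ratios of 0.57 for Mir451a and -0.34 for Mir144 and 0.34 for their sum. The part of these tissues in the cluster's difference was not tested.

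**Figure D3:**
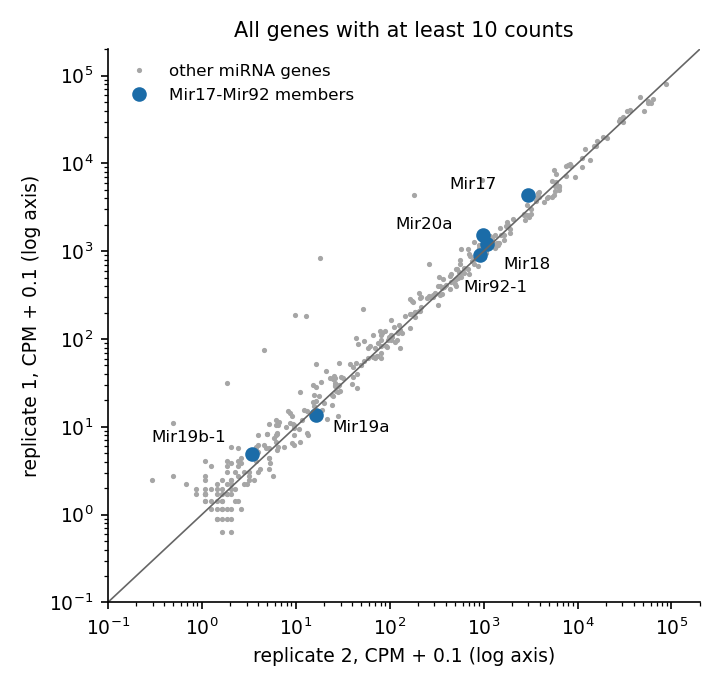
CPM plus 0.1 in replicate 1 (vertical, log axis) against replicate 2 (horizontal, log axis) for the 373 genes with at least 10 counts in total, with the line of equality. The 6 members, as large labelled points, lie near the line at levels from 4.05 to 3681 CPM.

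The mouse genome carries a pair of paralogous clusters. The Mir106a-Mir363 cluster, with genes of all 4 seed classes, lies on the X chromosome, and the Mir106b-Mir25 cluster, with genes of the miR-17 and miR-92 classes, lies within Mcm7, a gene for a subunit of the helicase that opens DNA for replication. Mature strands of these genes that share the miR-17 seed are shown, again with the seed in capitals, since they are set beside Mir17 and Mir20a below.
Mir106a, miR-106a-5p: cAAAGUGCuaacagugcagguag
Mir20b, miR-20b-5p: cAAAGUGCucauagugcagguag
Mir106b, miR-106b-5p: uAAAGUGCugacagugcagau
Mir93, miR-93-5p: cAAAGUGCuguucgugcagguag
The strand of Mir17 differs from that of Mir106a by U10A alone, from that of Mir20b by U10C and C12U, and from that of Mir93 by U10G, A11U, C12U and A13C. Over its 21 bases that of Mir106b differs from Mir17 by C1U, U10G and G20A.

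The chromosome 14 cluster exceeded both paralogues, and by nearly the same factor in both pups. Its summed count was 49.8 times that of the X-linked cluster in replicate 1 (45.9 to 54.0) and 50.2 times in replicate 2 (46.3 to 54.4), a mean of 50.0 ± 0.274 (SD, n = 2). It was 3.00 times that of the Mir106b-Mir25 cluster in replicate 1 (2.93 to 3.07) and 3.06 times in replicate 2 (2.99 to 3.13). In each case the intervals of the pups overlapped. The 3 clusters were higher in replicate 1 to a like extent, with log2 ratios of summed counts of 0.29 for Mir17-Mir92, 0.30 (0.13 to 0.46) for Mir106a-Mir363 and 0.31 (0.27 to 0.35) for Mir106b-Mir25.

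Members and their counterparts differed by very different factors. Mir17 exceeded Mir106a by 82.8 times in replicate 1 (72.0 to 95.7) and 105 times in replicate 2 (88.9 to 124). Mir20a exceeded Mir20b by 40.3 and 39.2 times, and Mir18 exceeded Mir18b by 283 times (174 to 496) and 215 times (147 to 330). Against the Mcm7 cluster, Mir17 was 4.0 and 3.4 times Mir106b, Mir20a was 1.21 and 1.25 times Mir93, and Mir92-1 was 2.84 and 3.16 times Mir25. By count Mir20a was thus slightly above Mir93 in both pups. Per 100 bases of hairpin, Mir20a had 1434 and 927 CPM and Mir93 had 1440 and 899.5 CPM, so this small gap did not hold on that scale.

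**Figure D4:**
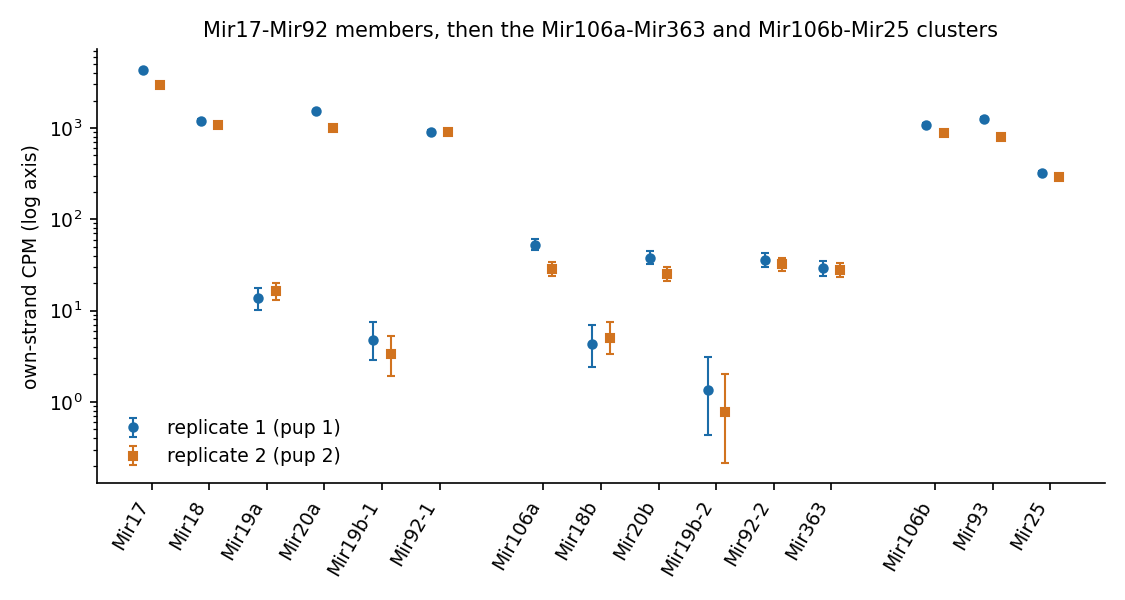
Own-strand CPM (vertical, log axis) of the Mir17-Mir92 members at left, then the X-linked Mir106a-Mir363 genes, then the Mir106b-Mir25 genes, with circles for replicate 1, squares for replicate 2 and exact 95% counting intervals. The X-linked genes reach at most 52.7 CPM, and Mir19b-1 and Mir19b-2 are the lowest gene of their clusters.

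For 2 members the mature strand is also made elsewhere. RefSeq gives identical strands to Mir92-1 and Mir92-2, and to Mir19b-1 and Mir19b-2. Their hairpins are shown for miR-92a, with the mature strand in capitals, because the counts differed although the strand did not.
Mir92-1: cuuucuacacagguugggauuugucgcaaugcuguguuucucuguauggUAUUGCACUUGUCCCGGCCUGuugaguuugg
Mir92-2: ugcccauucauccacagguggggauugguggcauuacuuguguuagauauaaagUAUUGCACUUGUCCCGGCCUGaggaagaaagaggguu
Mir92-1 lies on chromosome 14 from 115044427 to 115044506 on the plus strand, and Mir92-2 on the X chromosome from 52741838 to 52741928 on the minus strand. The longest stretch the hairpins share is 22 bases, the mature strand with the base before it. Mir92-1 had 3410 and 4681 counts against 135 and 165 for Mir92-2, a factor of 25.3 (21.3 to 30.2) and 28.4 (24.3 to 33.3). For Mir19b-1 and Mir19b-2, which share 25 bases, the factor was 3.60 (1.29 to 12.4) and 4.25 (1.39 to 17.4), from 18 and 17 counts against 5 and 4.

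Reads that fit both copies of a pair may be among the multimapping reads, since how such reads were handled is not given in the sources used here. The levels of Mir92-1 and Mir19b-1 are uncertain for that reason, and how many such reads belong to them was not tested. Mir19a has no identical copy. The longest stretch it shares with any of the other 1004 hairpins of the RefSeq table is 13 bases, the same length as for Mir17 and shorter than the 17 bases of Mir18 and Mir20a. Its mature strand differs from those of Mir19b-1 and Mir19b-2 by U11C alone. Whether reads of Mir19a fit a single place in the genome was not tested. Mir19a was the second lowest member in both libraries.

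Genes were then grouped by the seed of a mature strand over the whole table. Their counts are of whole hairpins, so the sums below are levels of genes and not of the strands that carry the seed. The miR-17 seed was found in 7 listed genes, of which Mir6383 had 0 counts. The remaining 6 had summed levels of 8350 and 5720 CPM, and Mir17 and Mir20a supplied 70.7% and 69.7% of that. Of the counts of genes with the miR-18 seed, 1211 and 1095 CPM, Mir18 supplied 99.6% and 99.5%. Of those of genes with the miR-92 seed, 1400 and 1345 CPM, Mir92-1 supplied 64.9% and 67.8%, and Mir25 followed with 320 and 288 CPM. The 3 genes with the miR-19 seed summed to 19.7 and 20.5 CPM, of which the members supplied 93.2% and 96.2%. Reads of the strands that Mir92-1 and Mir19b-1 share with their copies may be missing from these sums.

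All 6 measured genes with the miR-17 seed were higher in replicate 1 beyond counting error, on 3 chromosomes, beside 24.7% of all genes tested. Beside Mir17 and Mir20a, the log2 ratio was 0.75 (0.43 to 1.07) for Mir106a, 0.46 (0.10 to 0.81) for Mir20b, 0.17 (0.11 to 0.23) for Mir106b and 0.55 (0.49 to 0.61) for Mir93. The ratio of Mir106b lay within the quartiles of all genes. The median of the 6 was 0.48. Of the 10 genes with the other 3 seeds and at least 10 counts in total, 0 were higher in replicate 1 beyond counting error and 1, Mir92-1, was lower. The median of these 10 was 0.018, with ratios from -0.39 to 0.62. Some had few counts and wide intervals. Mir19b-1, at 0.40 from 18 and 17 counts, held 0, while Mir106b, at 0.17, did not. The calls thus depend on depth as well as on the ratio. Mir367 was at 0 counts and Mir19b-2 had 9 in total, so neither entered. Scaled by library totals, 6 of 6 with the miR-17 seed and 3 of 10 with the other seeds (Mir18, Mir25 and Mir32) were higher in replicate 1, beside 33.8% of all genes, and 0 of 10 were lower. The genes of a cluster share a transcript and are not independent, and the grouping by seed was made with the values known.

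**Figure D5:**
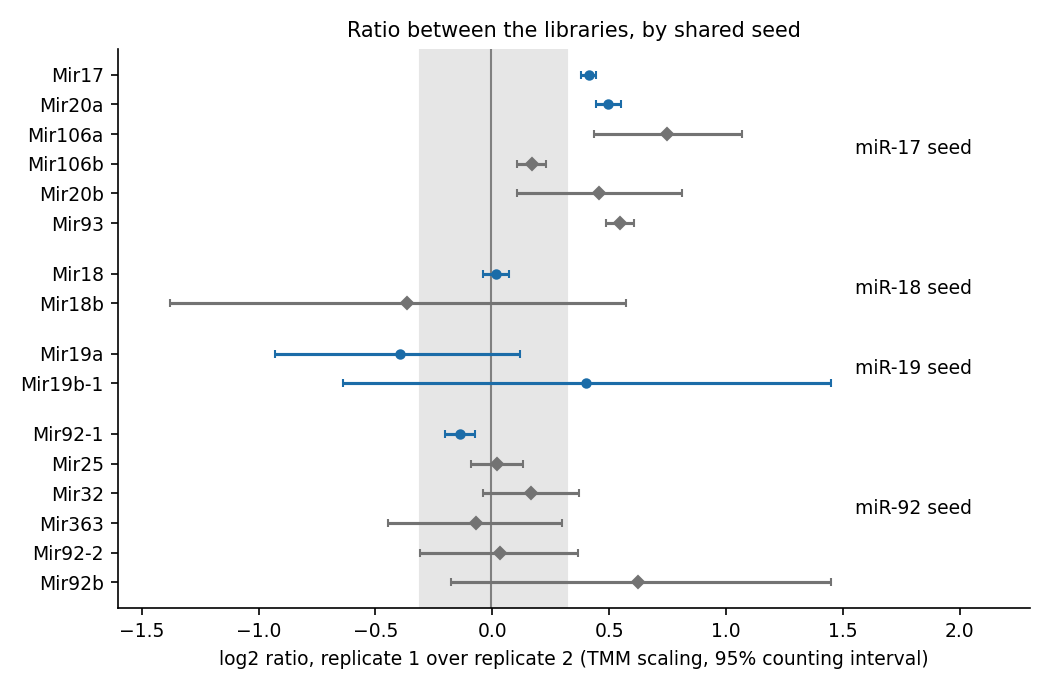
Log2 ratio of replicate 1 over replicate 2 (horizontal axis, TMM scaling) with 95% counting intervals for the genes of each seed class, members of the cluster as circles and other genes as diamonds. The grey band spans the quartiles of all 373 genes and the line their median; all 6 genes of the miR-17 seed lie right of 0, from 0.17 to 0.75.

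Because members of 1 library share its scaling, ratios between members show the same split without it. They restate the counts already used for the log2 ratios and the make-up, so they are no separate support for the split. Mir17 was 2.85 times Mir20a in replicate 1 (2.76 to 2.93) and 3.02 times in replicate 2 (2.92 to 3.12). These intervals meet, which does not show that the ratio was equal in both pups. Against Mir92-1 it was 4.81 times (4.63 to 4.99) and 3.29 times (3.18 to 3.40), and against Mir18 3.62 times (3.50 to 3.74) and 2.75 times (2.66 to 2.83). Mir20a over Mir92-1 was 1.69 (1.62 to 1.76) and 1.09 (1.05 to 1.13). Counts of hairpins from a single transcript did not keep 1 ratio between the pups.

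The Mir322-Mir503 cluster on the X chromosome, whose miRNAs are known to promote exit from the cell cycle in myoblasts, was set beside it. The summed level was 8034 and 6009 CPM for Mir17-Mir92 and 50592 and 45138 CPM for the 7 listed genes of Mir322-Mir503. The ratio of the summed counts in pup 1 was 0.159 (0.157 to 0.161), and that in pup 2 was 0.133 (0.132 to 0.135). Mir17 at 3681 ± 969 CPM lay below Mir322 at 29178 ± 1772 CPM and Mir351 at 13390 ± 1892 CPM (SD, n = 2 each). It lay above Mir542 at 2677 ± 54.8 CPM (SD, n = 2) in both libraries.

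Genes nearest to each member in log2(CPM + 1) over both libraries, by Euclidean distance, were found among all other listed genes. They were Mirlet7b (0.11) and Mir30d (0.32) for Mir17, and Mir15a (0.053) and Mir342 (0.12) for Mir20a. For Mir18 they were Mir361 (0.070) and Mir101b (0.20), and for Mir92-1 Mir872 (0.13) and Mir495 (0.13). For the low members they were Mir30c-2 (0.048) and Mir6236 (0.27) beside Mir19a, and Mir384 (0.093) and Mir34b (0.14) beside Mir19b-1. Mir15a, a gene of a family known to restrain division, had 1488 and 1013 CPM, almost the values of Mir20a. With 2 libraries such nearness describes a level and a ratio only.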

How the data were processed

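Small RNA of newborn mouse skeletal muscle was sequenced in 2 libraries, 1 per pup of a litter. The deposited files give whole-number read counts per miRNA gene on mm10 with annotation M4, per the deposited descriptions; the aligner and counter are not given in the sources used here. The tables have 3 unnamed count columns, and in all 1973 genes the first equals the sum of the other 2. It was read as either strand, and the others as own and opposite strand. The 4 leading lines stayed out of totals.

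Of the 1973 genes, 1894 matched GENCODE M21 (same genome) by identifier. Own-strand counts were scaled to CPM. Log2 ratios between the libraries were scaled with TMM (edgeR 4.0.16 under R 4.3.3), whose factors were 1.05 and 0.955. A pseudocount of 0.5 was used, and genes with at least 10 counts in total entered. Their 95% intervals are exact conditional binomial intervals, and shares have Clopper-Pearson intervals (scipy 1.17.1). All cover counting error only and hold no spread between pups. The reads carry no molecular identifiers here, so copies of 1 molecule were not told apart and the intervals may be too narrow. A count of 0 allows up to 3 counts, 0.799 CPM in replicate 1 and 0.584 CPM in replicate 2. The ratio step was tested on simulated counts with known fold changes, for well-counted genes only. That simulation held counting error alone and was given the scaling, so it tests neither the scaling nor a wider spread. The libraries were distinct: chi-square over degrees of freedom, computed on their gene counts, was 281.

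The rule for the members uses gene identifiers alone, but the cluster, the lists and the tests were chosen with earlier results of these data known. Named genes were the 6 members, all genes of the paralogous clusters, the 3 most abundant Mir322-Mir503 genes and the 2 nearest genes of each member. Mir6383, Mir32 and Mir367, which share a seed with a member, were named after their values were seen. So were Mir1a-1, Mir133a-1 and Mir133a-2, given beside the muscle markers. Alternatives were the counts of both strands, other denominators, DESeq2 1.42.0 size factors, library totals, a pseudocount of 1, other filters, members without a copy, and each library alone.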

Additional observations from a re-analysis of the deposited data

How the results depend on the processing

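No member reached a 2-fold difference under any scaling, pseudocount, strand or filter tried. Of 121 alternative values, 98 were scored as the same as the main value and 23 as moved. The measure was the SD over both libraries for shares, CPM, make-up and cluster ratios. For the log2 ratio of a member it was the reach of its counting interval to either side. For the cluster median it was the reach of the interval of the summed counts. For counts of genes it was a set fold. A change of sign was not scored. Some values could not move. Without opposite-strand counts in these clusters, make-up and cluster ratios are the same on both strands, and a filter leaves a gene's own log2 ratio unchanged. With all reads as the denominator the cluster's share was 0.366% in place of 0.702% and Mir17 had 1921 CPM in place of 3681, because the denominator grows. With library totals in place of TMM factors the cluster's median log2 ratio was 0.34 in place of 0.21 and that of Mir17 was 0.54 in place of 0.41, since all ratios shift alike; the interval of Mir92-1 then held 0 and that of Mir18 lay above it. Without Mir92-1 and Mir19b-1, and without their X-linked copies, Mir17 made up 60.1% of the cluster in place of 52.1%, and the cluster was 58.0 times the Mir106a-Mir363 cluster in place of 50.0 and 2.62 times the Mir106b-Mir25 cluster in place of 3.03. Over all genes, 31 were at least 2-fold apart, against 215 with no filter, where more genes enter, and 15 with at least 10 counts required in each library, where fewer do. Either library alone gave shares from 0.601% to 0.803%, 2995 to 4366 CPM for Mir17, a make-up of 49.8% to 54.3% for Mir17, and cluster ratios of 49.8 to 50.2 and 3.00 to 3.06; with n = 2 each library is by construction less than 1 SD from the mean. No paired analysis was possible because both libraries belong to a single group. Depth limits Mir19b-1, Mir18b and Mir19b-2, which had under 30 counts per library.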
